A study of Argyrosomus regius with 12 samples.

Results

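The genes described here are 150 of the 42480 genes in a transcript assembly of the spleen of meagre (Argyrosomus regius), a marine bony fish. They were lower in LPS-injected than in saline-injected fish at 4 h, in 2 of the 3 LPS pools, and higher at 24 h in every LPS pool. A gene here is a group of transcripts to which the Trinity assembler gave the same gene identifier, and its level is the sum of their counts in CPM, the count divided by the library total and scaled alike in all libraries. The choice took genes with a mean of at least 2 CPM, which left 20614. At 4 h both LPS replicates 1 and 3 had to lie below all 3 saline pools, with a ratio of mean LPS to mean saline level of at most 0.66. At 24 h all 3 LPS pools had to lie above all 3 saline pools, with a ratio of at least 1.51. Each ratio was taken after adding 0.5 CPM. These thresholds were met by 614 genes, and the 150 with the largest 24 h ratio relative to the 4 h ratio were kept.

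There were 4 groups of 3 libraries. The spleens of 4 fish of 22 g went into 1 library, so that a group stands for 12 fish. In 2 groups the fish received lipopolysaccharide (LPS) of Photobacterium damselae subsp. piscicida strain Lg41/01 at 10 µg per g of fish in the body cavity, and the spleens were taken 4 h or 24 h later. The fish of the other 2 groups received phosphate-buffered saline (PBS) in the same way and were sampled at the same times. No untreated fish entered these comparisons, so every group carries the handling and the injection, and pooling hides the differences between single fish. Library totals ran from 29614365 to 56556752 counts.

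LPS is the main component of the outer membrane of Gram-negative bacteria, and innate immune cells that sense it release cytokines and change their own gene expression within hours. The spleen of bony fish filters the blood and holds macrophages, lymphocytes and stored red cells, so an injected bacterial product reaches it through the circulation. The subspecies piscicida causes photobacteriosis, a septicaemia of farmed marine fish. The deposited matrix does not pair its identifiers with gene names, and no sequence or annotation was used here. The roles of the 150 genes, and the cell types in which they are expressed, are therefore not described, and the labelled tissue was not checked against marker genes. In whole spleen, fewer cells of a type and less RNA per cell cannot be told apart.

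LPS 4 h replicate 2 was not used by the thresholds, apart from its share in the overall mean, and is described separately. It lay above both LPS 4 h replicates 1 and 3 for 148 of the 150 genes, against 56.2% of the 20614 genes. The choice itself set replicates 1 and 3 low, so this count is largely fixed by it and is given as a description, as is the 461 of the 464 other genes that met the thresholds. The ratios, thresholds and separations at 4 h rest on LPS replicates 1 and 3 unless replicate 2 is named, and the model fits hold all 12 libraries unless one is said to be left out.

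The 150 genes were of ordinary abundance. Their median level was 10.7 CPM, with quartiles of 6.02 and 28.9, and all genes above the floor had a median of 12.7 CPM. Together they took between 0.199% and 1.37% of a library. At 4 h the PBS pools gave them 0.900%, 0.584% and 0.778% of the library for replicates 1 to 3. The LPS 4 h pools gave them 0.230%, 0.661% and 0.199%, so that replicate 2 lay inside the range of the PBS 4 h pools while replicates 1 and 3 lay below it. At 24 h the PBS pools stood close together at 0.338%, 0.352% and 0.328%, and the LPS pools were at 0.972%, 1.00% and 1.37%. The most abundant of the 150 held a large part of these shares, and without it the LPS 24 h pools were at 0.789%, 0.801% and 1.00% and the PBS 24 h pools at 0.280%, 0.291% and 0.250%.

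The values that chose the genes are given as a description. At 4 h the ratio of LPS replicates 1 and 3 to PBS had a median of 0.404 and ran from 0.0297 to 0.659. At 24 h the ratio of LPS to PBS had a median of 3.40 and ran from 1.55 to 11.3. The gap between the groups was narrower than these ratios of means. All LPS 24 h pools lay above all PBS 24 h pools in the 150 genes by choice, against 18.3% of all genes. The lowest LPS 24 h pool stood above the highest PBS 24 h pool by a median factor of 1.91, and by a factor as small as 1.01 for the closest gene. The lowest PBS 4 h pool stood above the higher of LPS replicates 1 and 3 by a median factor of 1.64, with a smallest factor again of 1.01. The 24 h ratio divided by the 4 h ratio ran from 71.1 for the gene ranked first down to 5.45 for the gene ranked last. The gene just inside the limit had ratios of 0.553 at 4 h and 3.02 at 24 h, and the gene just outside had 0.605 and 3.29, with a quotient of 5.44.

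**Figure D1:**
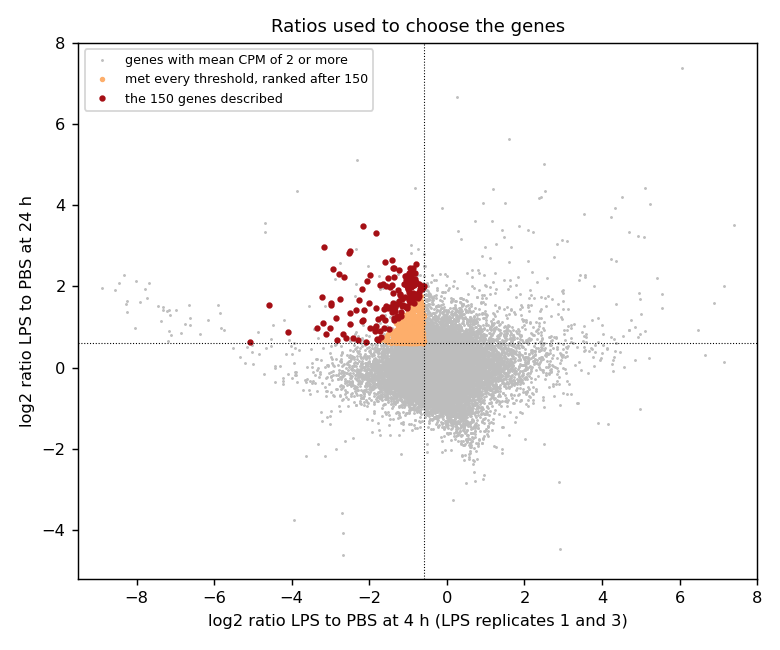
Ratio of mean LPS to mean PBS level at 4 h (horizontal axis, LPS replicates 1 and 3 only) and at 24 h (vertical axis), both as log2 of CPM + 0.5, for each of the 20614 genes with a mean of at least 2 CPM. Dotted lines mark the ratio thresholds of 0.66 and 1.51, dark red points are the 150 genes, orange points are the other 464 genes that met every threshold, and grey points in the same corner include genes whose pools overlapped.

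A fall at 4 h followed by a rise at 24 h was not more frequent among the genes that rose at 24 h than a fall at 4 h was among all genes. Of the 20614 genes, 5982 (29.0%) met the thresholds for a fall at 4 h and 2293 (11.1%) those for a rise at 24 h. The 614 genes with both made up 26.8% of the genes that rose at 24 h and 10.3% of those that fell at 4 h. The mirrored thresholds gave 75 genes that rose at 4 h and fell at 24 h, which was 3.31% of the 2266 that rose at 4 h, where 5.82% of all genes fell at 24 h. They gave 422 genes that rose at both times, which was 18.4% of those that rose at 24 h, where 2266 of all 20614 genes had risen at 4 h.

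Part of the fall at 4 h depended on the scaling. With CPM of the library total, the median of all 20614 genes was itself lower in LPS 4 h replicates 1 and 3 than in PBS 4 h pools, at a ratio of 0.822 (-0.28 on the log2 scale), and 44.0% of all genes lay below every PBS 4 h pool. With TMM scaling, which sets libraries by the bulk of their genes, the median ratio over all genes was 0.986 and that over the 150 genes was 0.483. All thresholds were then met by 117 of the 150 genes, and by 373 (1.81%) of all genes. The rise at 24 h moved little, with a median ratio of 3.46 under TMM scaling against 0.997 for all genes. The 24 h thresholds were kept by 145 of the 150 genes and the 4 h thresholds by 121. Over all genes the share meeting the 4 h thresholds went from 29.0% to 17.6% under TMM scaling. The share meeting the 24 h thresholds went from 11.1% to 12.0%, so the larger loss at 4 h was not particular to the 150. The most abundant gene of the whole series, which is not among the 150, took between 1.32% and 9.48% of a library and enters every library total; its part in the scaling shift was not tested.

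Among the 4 groups, the order of levels was mostly the same from gene to gene. In 116 of the 150 genes the group mean was highest in LPS 24 h, followed by PBS 4 h, PBS 24 h and LPS 4 h replicates 1 and 3. Another 14 genes had PBS 4 h highest with the same order below it, and the other 20 had one of 3 further orders. Relative to the PBS 4 h mean, LPS 24 h pools were at a median ratio of 2.20 and PBS 24 h pools at a median ratio of 0.714, where all genes had 0.949 and 0.986. The thresholds favour genes that are high in PBS 4 h and low in PBS 24 h pools, so these values describe the 150 genes and test nothing.

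**Figure D2:**
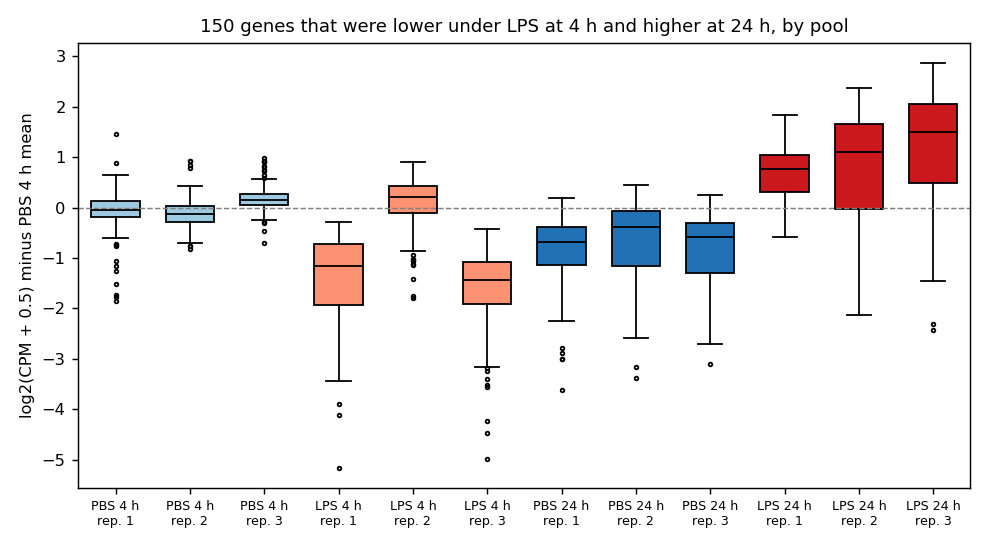
Level of the 150 genes in each of the 12 pools, as log2(CPM + 0.5) minus the mean of the PBS 4 h pools of the same gene. Boxes span the quartiles over the 150 genes, the line is the median, whiskers reach 1.5 times the interquartile range and points lie beyond it; medians were -1.15 and -1.43 in LPS 4 h replicates 1 and 3, 0.21 in replicate 2, and 0.76, 1.10 and 1.49 in the LPS 24 h pools.

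The genes were sorted by where the PBS 4 h pools lay, a division made here that leaves some genes with both separations or neither. In 92 genes (61.3%) all LPS 24 h pools were above all PBS 4 h pools. This was so for 14.2% of all genes and for 75.9% of the 464 other genes that met the thresholds. In these 92 genes, LPS 24 h went beyond the level of either control. They divided into 57 genes whose PBS pools overlapped between the times and 35 whose PBS 24 h pools were all below the PBS 4 h pools. The median ratio of LPS 24 h to PBS 4 h was 2.98 in the former and 2.82 in the latter. In another 49 genes the PBS 24 h pools were all below the PBS 4 h pools while LPS 24 h did not clear them. Their median ratio to PBS 4 h was 0.363 for PBS 24 h and 1.11 for LPS 24 h. For these the higher level under LPS at 24 h was set against a control that was itself lower than at 4 h, and LPS 24 h was near the 4 h control. The last 9 genes had neither separation. For the counts of 57, 35, 49 and 9 the shares over all genes and over the 464 were not taken. The division is thus a description, and whether it is particular to the genes described here was not tested. LPS 24 h pools all lay below the PBS 4 h pools in 2 genes, against 15.2% of all genes. LPS 4 h replicates 1 and 3 lay below the PBS 24 h pools as well in 92 genes, against 37.8% of all genes and 75.9% of the 464. In all, PBS 24 h pools lay below PBS 4 h pools in 84 genes, against 10.8% of all genes and 22.8% of the 464. The thresholds favour both separations.

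The largest rise at 24 h was that of TRINITY_DN417_c0_g1, a gene of 9 assembled isoforms ranked 4 among the 150. Its levels in LPS 24 h replicates 1 to 3 were 86.6, 231 and 263 CPM, against 20.2, 16.4 and 13.4 CPM in the PBS 24 h pools, and the ratio of means was 11.3. At 4 h it had 12.1, 27.2 and 7.67 CPM in the LPS pools and 28.8, 47.3 and 62.6 CPM in the PBS pools. LPS replicate 2, at 27.2 CPM, lay just under the lowest PBS 4 h pool, and replicates 1 and 3 lay further below, at a ratio of 0.222. LPS 24 h pools were above every pool of the other 3 groups.

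TRINITY_DN29750_c0_g1, with 1 isoform and rank 8, had the next largest rise. It had 42.3, 88.7 and 178 CPM in the LPS 24 h pools and 8.74, 10.3 and 10.5 CPM in the PBS 24 h pools, a ratio of 9.99. The LPS 24 h pools differed among themselves by more than the PBS 24 h pools did, with a mean of 103 ± 68.9 CPM against 9.86 ± 0.97 (SD, n = 3 each). At 4 h the LPS pools had 10.4, 27.6 and 7.25 CPM and the PBS pools 55.2, 19.6 and 23.9 CPM. Here LPS replicate 2 lay inside the range of the PBS pools, and PBS 4 h replicate 1 lay above LPS 24 h replicate 1.

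The deepest fall at 4 h was that of TRINITY_DN33637_c0_g1, with 1 isoform and rank 3. LPS 4 h replicates 1 and 3 were at 2.36 and 2.69 CPM, while PBS 4 h replicates 1 to 3 were at 109, 93.0 and 102 CPM, which made the mean of the 2 LPS pools 33.7-fold lower after adding 0.5 CPM. LPS 4 h replicate 2 was at 130 CPM, above every PBS 4 h pool and above every other library. At 24 h the groups were much closer, with 73.8, 81.0 and 97.0 CPM under LPS and 66.0, 52.5 and 42.7 CPM under PBS. The gene thus met the 24 h ratio narrowly, at 1.56, and owes its rank to the 4 h values of 2 pools.

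TRINITY_DN19586_c0_g1, with 1 isoform and rank 2, had the second deepest fall. LPS 4 h replicates 1 to 3 were at 0.347, 3.75 and 0.165 CPM, and PBS 4 h replicates at 4.69, 24.8 and 23.9 CPM, so that PBS replicate 1 was nearer to LPS replicate 2 than to the other PBS pools. At 24 h LPS replicates were at 16.2, 5.01 and 5.29 CPM and PBS replicates at 2.59, 0.925 and 4.60 CPM. The groups did not overlap at 24 h, but LPS replicates 2 and 3 lay close above PBS replicate 3, and replicate 1 held most of the difference.

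**Figure D3:**
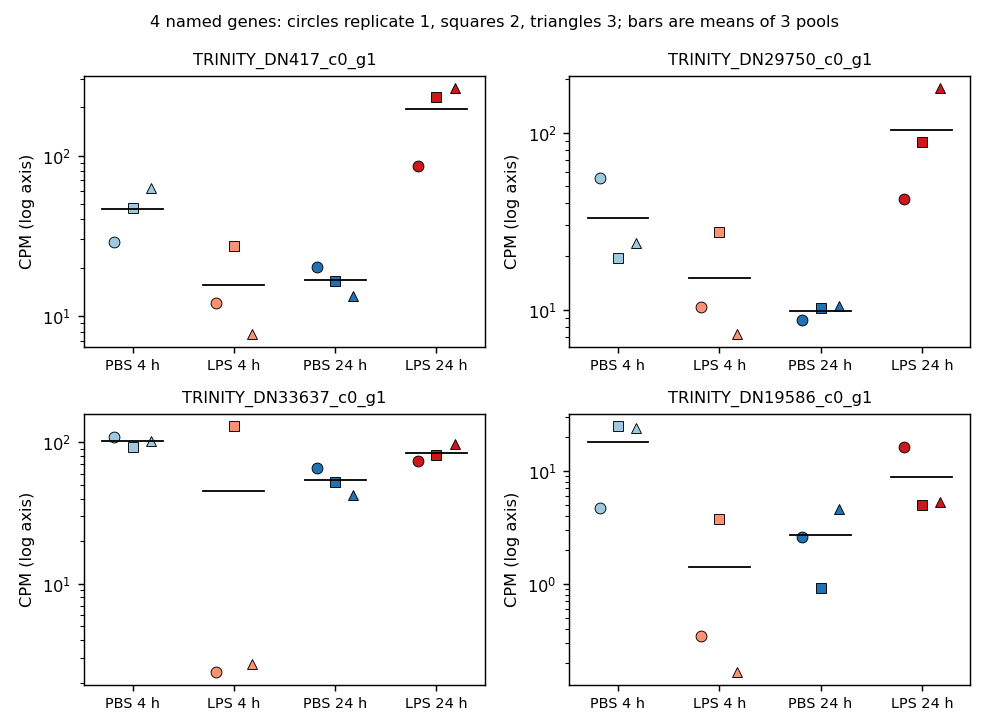
CPM on a log axis in each pool for the 2 genes with the largest ratio at 24 h (top) and the 2 further genes with the lowest ratio at 4 h (bottom). Circles, squares and triangles are replicates 1, 2 and 3, and bars are means of 3 pools; in all 4 genes LPS 4 h replicate 2 lies above replicates 1 and 3.

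The most abundant of the 150 genes, ranked 21, showed the common profile at a high level. It had 2847, 1293 and 1662 CPM in PBS 4 h replicates 1 to 3 and 543, 1206 and 307 CPM in LPS 4 h replicates 1 to 3. At 24 h it had 579, 614 and 779 CPM under PBS and 1833, 2035 and 3709 CPM under LPS. LPS 4 h replicate 2 was again nearest to the PBS 4 h pools, just under the lowest of them. The next most abundant, ranked 149, was at 937 ± 132 CPM in LPS 24 h and 485 ± 43.6 CPM in PBS 24 h pools (SD, n = 3 each).

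LPS 4 h replicate 2 did not show the fall. Its level relative to the PBS 4 h mean had a median ratio of 1.13 over the 150 genes, with quartiles of 0.895 and 1.32, where all genes had a median of 0.994. It lay above all PBS 4 h pools in 77 genes, against 25.9% of all genes, inside their range in 57, against 51.7%, and below all of them in 16, against 22.5%. In the 464 other genes that met the thresholds these shares were 56.7%, 36.4% and 6.90%, so the placing was not particular to the 150. LPS 4 h replicate 2 lay above every PBS 24 h pool in 134 of the 150 genes, against 28.7% of all genes and 75% of the 464. It lay below every LPS 24 h pool in 109, against 20.5% and 75.2%. The PBS 4 h and 24 h pools on which this placing rests were themselves used to choose the genes, and a single pool leaves no spread for a test. The fits given below, with and without replicate 2, differed over all genes in rises at 4 h as well as in falls.

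The genes were also chosen again by the same rule with 1 LPS and 1 PBS pool of the same time left out. The 2 pools left out were then compared. The rule itself, with LPS 4 h replicate 2 set aside, was fixed with results of these data known. Of each 150 genes chosen again, 97 to 130 were among those described here for the 24 h pairs. For the 4 h pairs with LPS replicate 1 or 3 it was 114 to 122, and there only 1 LPS 4 h pool was left to choose the genes. At 24 h, over the 9 pairs, the LPS pool left out was above the PBS pool left out in 76.7% to 98% of the 150 genes chosen, with a median over pairs of 91.3%. Over all genes above the floor the same pairs gave 34.1% to 64.3%. The median log2 difference of the chosen genes ran from 0.90 to 2.07, against -0.21 to 0.21 for all genes. With TMM-scaled CPM the shares ran from 72% to 98%, against 50.4% to 56.6% of all genes, and the median log2 differences from 0.49 to 1.67. The lowest share, 76.7%, came from LPS replicate 3 with PBS replicate 1. At 4 h, over the 6 pairs with LPS replicate 1 or 3, the LPS pool was below the PBS pool in 91.3% to 98% of the genes chosen, against 60.4% to 70.8% of all genes, with median log2 differences of -1.43 to -0.76 against -0.40 to -0.20.

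The same scoring of LPS 4 h replicate 2 went the other way. Over its 3 pairs it was below the PBS 4 h pool left out in 24.7%, 20% and 39.3% of the chosen genes, for PBS replicates 1 to 3, where all genes gave 49.2%, 46.0% and 50.1%. Its median log2 difference from those pools was 0.30, 0.40 and 0.10. In these pairs LPS 4 h replicates 1 and 3 and the LPS 24 h pools lay mostly on the side of the rule, and LPS 4 h replicate 2 on the opposite side. The rule was fixed with all these pools known, so no pool was wholly outside the choice. The shares at both times are therefore a description and not a check of the list. At 4 h the shares show only how far LPS replicates 1 and 3, the pools kept by the rule, were alike. The pairs share pools and the genes are not replicates, so no p is given.

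**Figure D4:**
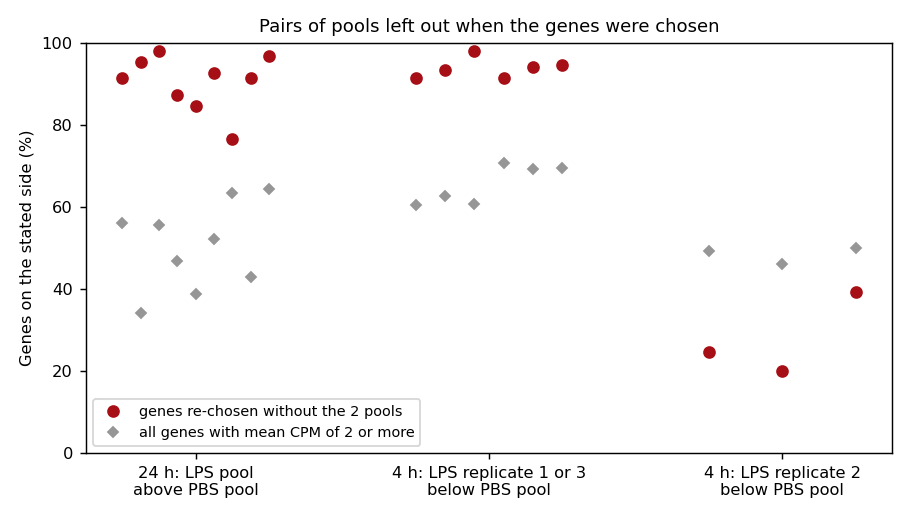
Share of genes (%) in which a left-out LPS pool lay on the stated side of a left-out PBS pool; each red circle is 1 pair of pools, scored on 150 genes chosen without that pair, and the grey diamond at the same position is the same share over all genes with a mean of at least 2 CPM. Red circles lie above the diamonds at 24 h (76.7% to 98%) and for LPS 4 h replicates 1 and 3 (91.3% to 98%), and below them for LPS 4 h replicate 2 (20% to 39.3%). The rule was fixed with all these pools known, so the shares are a description.

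Counts summed per gene were also tested with edgeR's quasi-likelihood test in 1 fit over all 32542 genes that passed its expression filter, and a gene was called at a Benjamini-Hochberg adjusted p below 0.05. All 150 genes passed the filter, which the floor of 2 CPM makes likely. Because the choice used both LPS contrasts, the calls are counted and nothing is read from them. At 4 h with all 12 libraries edgeR called 0 of the 150 genes lower, against 0.0% of all genes; an unadjusted p below 0.05 with a lower level was reached by 32 of them, against 8.08%, and DESeq2 called 11 of the 146 of them to which it gave an adjusted p, against 1.93%. The other DESeq2 counts below are also out of 146. Without LPS 4 h replicate 2 edgeR called 74 lower, against 11.2%, and the median log2 fold change was -1.14, against -0.03 for all genes. With replicate 2 in the fit the median was -0.55. Over the whole table edgeR called 1 gene higher and 0 lower at 4 h with replicate 2 in the fit. Without replicate 2 it called 3711 higher and 3743 lower. The change was thus particular neither to the 150 genes nor to falls.

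At 24 h edgeR called 88 of the 150 genes higher, against 2.98% of all genes, with a median log2 fold change of 1.90 against -0.08. The count was 53, 4 and 42 without PBS 24 h replicates 1, 2 and 3, and 44 and 27 without LPS 24 h replicates 2 and 3. In the same order, these fits called 503, 28, 286, 308 and 167 genes of the whole table higher, against 970 with all 12 libraries. The lower counts were thus not particular to the 150. Without LPS 4 h replicate 2 edgeR called 119 of the 150, against 5.18% of all genes. DESeq2 called 117, against 7.38%. A more positive LPS effect at 24 h than at 4 h was called for 4 genes, against 0.0154%, and these were 4 of the 5 genes called in the whole table. An unadjusted p below 0.05 in that direction was reached by 144, against 8.62%. Without LPS 4 h replicate 2 it was called for 147, against 9.53%.

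Neither change with time was itself a contrast of the choice, but both compare groups that the choice had pushed apart. In PBS fish edgeR called 2 of the 150 genes lower at 24 h than at 4 h, against 0.0154% of all genes, and the median log2 change was -0.50 against 0.03 for all genes. An unadjusted p below 0.05 was reached by 43, against 4.38%, and DESeq2 called 16, against 0.993%. The edgeR count was 11 without LPS 4 h replicate 2, against 0.438%. It was 0 without PBS 4 h replicate 2 or 3 or LPS 24 h replicate 2, and 0 without PBS 24 h replicate 1, 2 or 3. No gene of the whole table was called lower in these fits. Without LPS 24 h replicate 1 or 3 the count was 1, against 0.00299% and 0.00897% of all genes. In LPS fish edgeR called 95 higher at 24 h than at 4 h, against 3.14% of all genes, with a median log2 change of 1.83, and DESeq2 called 113, against 8.41%. The count was 138 without LPS 4 h replicate 2, against 15.8% of all genes. It was 0 without LPS 4 h replicate 1 or 3 or LPS 24 h replicate 2 or 3, against at most 0.00299%.

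Within groups the 150 genes did not vary independently. After each gene's group means were removed, a single component held 52.1% of the remaining variance over the 11 pools used by the rule. The largest component computed over all genes held 34.1%, and that over the 464 other genes that met the thresholds 38.5%. In the 150 the component set LPS 24 h replicate 3 (weight 0.54) against replicate 1 (-0.67). That of all genes was a different one. It had LPS 24 h replicates 1 (0.17) and 3 (0.31) on the same side, against replicate 2 (-0.47). The 464 had the same opposition of replicates 3 and 1 as the 150 (0.54 and -0.59), so it was not particular to the 150. LPS 24 h replicate 3 was the highest pool of its group in 113 genes (75.3%), against 52.5% of all genes and 68.3% of the 464. Replicate 1 was highest in 28, against 21.4% and 6.25%, and replicate 2 in 9, against 26.1% and 25.4%. In the PBS 4 h pools replicate 3 was the highest in 90 genes, against 35.4%, replicate 1 in 42, against 34.5%, and replicate 2 in 18, against 30.1%. Among the PBS 24 h pools replicate 2 was the highest in 84 genes, a share near the 56.4% of all genes. The LPS 24 h pools of a gene differed by a median factor of 2.02 from highest to lowest, against 1.40 for all genes and 1.41 for the 464. The PBS 24 h pools differed by 1.39, against 1.49 and 1.33. Ranking by a ratio of means favours genes with 1 very high LPS 24 h pool. The separation of the groups favours PBS 24 h pools that lie close together. These spreads are thus partly set by the choice and are given as a description. LPS 24 h replicate 3 was also the deepest library of the series, and whether depth bears on these values was not tested.

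A set of 17 of the 150 genes had LPS 24 h replicate 1 as the highest and PBS 4 h replicate 1 as the lowest pool of their groups, an order held by 6.78% of all genes. It was singled out after its values were seen and is described without a test. Their median levels in PBS 4 h replicates 1 to 3 were 8.07, 38.5 and 35.2 CPM, and in LPS 24 h replicates 1 to 3 they were 70.5, 10.7 and 7.0 CPM. In the LPS 4 h pools they were 3.79, 10.7 and 3.02 CPM and in the PBS 24 h pools 2.71, 3.19 and 4.63 CPM. Levels in these genes thus differed between pools of the same group about as much as between groups. The median 24 h ratio of the 17 was 2.99, and 1.77 without LPS 24 h replicate 1. In the other 133 genes it was 3.43, and 3.90 without that pool. The 17 had ranks from 1 to 134 with a median of 30, against 82 for the others, and 6 of them were within the first 25 ranks. The gene ranked first and TRINITY_DN19586_c0_g1, at rank 2, were among them. The rank is computed from the same pool values that singled out the 17, so it is not a separate trait.

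In the 17 genes the median ratio of LPS 4 h replicate 2 to the PBS 4 h mean was 0.501, with a range from 0.217 to 0.951, and in the other 133 genes it was 1.19. The 17 were picked for a low PBS 4 h replicate 1, so their PBS 4 h mean rests on replicates 2 and 3. The median level of LPS 4 h replicate 2, 10.7 CPM, lay inside the range of the PBS 4 h medians, above that of replicate 1. Relative to the PBS 4 h mean, LPS 24 h was at a median ratio of 0.831 in the 17 and 2.34 in the others. Of the 17, 14 were among the 49 genes whose PBS 24 h pools lay below PBS 4 h without LPS 24 h clearing it. The picking makes PBS 4 h replicates 2 and 3 the higher pools and LPS 24 h replicates 2 and 3 the lower ones. LPS 24 h is then unlikely to clear PBS 4 h, so these values are not separate traits of the 17.

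**Figure D5:**
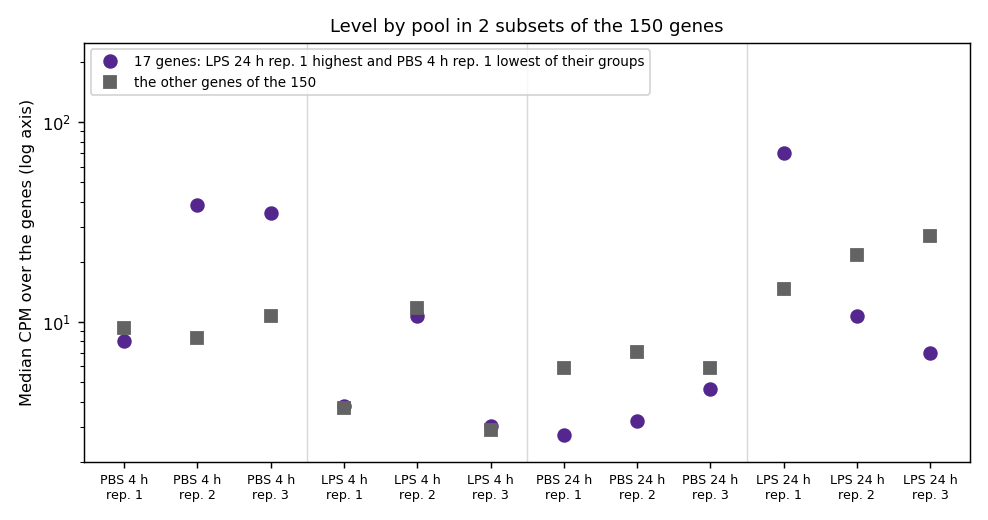
Median CPM (log axis) in each pool over the 17 genes with LPS 24 h replicate 1 highest and PBS 4 h replicate 1 lowest of their groups (circles) and over the other 133 genes (squares). The circles lie at 38.5 and 35.2 CPM in PBS 4 h replicates 2 and 3 and at 70.5 CPM in LPS 24 h replicate 1, and between 2.71 and 10.7 CPM in all other pools.

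Where a gene had several isoforms, the most abundant one mostly followed the pattern of the gene, as the choice on summed counts makes likely. In the assembly 121 of the 150 genes (80.7%) had a single isoform, against 81.3% of all genes above the floor, and the other 29 had up to 13. In those 29 the most abundant isoform held a median of 89.1% of the gene, with a range from 30.6% to 99.5%. It was the same isoform in all 4 groups in 25 of them (86.2%), against 82.4% of the 3854 genes with several isoforms. In 27 of the 29 that isoform alone separated the groups in the same directions. The choice used the sum of the isoforms, so this count is largely fixed by it and is given as a description. Of 72 isoforms with a mean of at least 0.5 CPM in these genes, 8 had a higher mean in LPS 4 h replicates 1 and 3 than in PBS 4 h pools, and 1 had a lower mean in LPS than in PBS pools at 24 h. The split of reads between isoforms is an estimate. Of the 150 genes, 8 shared their cluster of assembled reads with another of the 150, a count for which no share over all genes was taken. Those ranked 13, 14, 37 and 78 came from the same cluster, TRINITY_DN2672. A further count, 104 of the 150 (69.3%), were the only gene of their cluster, against 62.5% of all genes.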

How the data were processed

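RNA of 12 spleen pools was sequenced from directional libraries, per the labels' protocols. The authors deposited 1 matrix of estimated counts, as whole numbers, for 58975 assembled transcripts. Among the tools, per the submitters' processing notes, are Bowtie2, DESeq2, FastQC, RSEM and Trimmomatic 0.39, whose roles they do not state. The sources used here do not say how transcripts were assembled or whether counting used strand. Near-identical gene copies may share reads, so their levels are uncertain.

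Deposited counts were summed per Trinity gene and divided by the library total to give CPM. The members, lists and tests were chosen with earlier results of these data known. The test of the counts was that of edgeR 4.0.16, run in R 4.3.3 (quasi-likelihood with robust estimation, TMM, filterByExpr, 1 mean per group, 12 libraries, 2-sided, Benjamini-Hochberg adjustment over all genes tested). The alternatives were DESeq2 1.42.0, median-ratio scaling, no filter, a replicate block, the compared groups alone and each library left out. Named genes were the 2 with the highest 24 h ratio and the 2 further ones with the lowest 4 h ratio. P-values set the difference between group means against the spread between pools, not between single fish.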

Additional observations from a re-analysis of the deposited data

Results flagged for a closer look

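The LPS effects at 24 h and at 4 h were compared by a direct test of their difference. With all 12 libraries edgeR called 4 of the 150 genes, against 0.0154% of all genes. Without LPS 4 h replicate 2 it called 147, against 9.53%. The genes had been chosen to differ in this way, so neither count adds to their description. Only groups of 3 pools exist, so single pools were not screened for extreme values.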

How the results depend on the processing

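The number of genes meeting every threshold was 614, and it became 373 with TMM-scaled and 350 with median-ratio-scaled CPM, 398 with a pseudocount of 2 CPM and 40 with all 3 LPS 4 h replicates required, of which 15 were among the 150. Without each library it ran from 537 to 745. DESeq2 called, of 146 genes, 11 lower at 4 h, 125 for the difference of LPS effects and 16 for time in PBS. Over all genes the shares were 1.93%, 2.69% and 0.993%. With the compared groups alone edgeR called 12 for time in PBS, against 0.253%, and 0 for time in LPS, against 0% of all genes. The share on the side of the rule in left-out pools at 4 h fell from a median of 93.7% to 89.3% with TMM-scaled CPM. In each case the cause was not tested.

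Replicate numbers did not pair the pools: deviations from group means gave correlations of -0.41 to 0.18 for pools with the same number and -0.35 to 0.41 for others, and 0 of 12 libraries were closest to their own number. With the replicate block the count was 0 for the difference, for time in PBS and for time in LPS, where no gene of the whole table was called. It was 68 at 24 h, against 1.39% of all genes.

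With each library left out in turn, edgeR called 0 to 74 genes lower at 4 h, 4 to 119 higher at 24 h, 0 to 147 for the difference, 0 to 11 for time in PBS and 0 to 138 for time in LPS. In the same order, the shares of all genes ran from 0% to 11.2%, 0.0840% to 5.18%, 0% to 9.53%, 0% to 0.438% and 0% to 15.8%. For the difference edgeR called 0 without PBS 4 h replicate 3, PBS 24 h replicate 2 or 3 or LPS 4 h replicate 1. It called 1 without LPS 4 h replicate 3 or LPS 24 h replicate 3, and 2 without PBS 4 h replicate 2 or PBS 24 h replicate 1. At most 0.0119% of all genes were called in these fits. The median log2 difference of LPS 4 h replicate 2 from PBS 4 h was 0.18, and 0.10 to 0.30 without each PBS pool. No named gene changed direction under any setting, which its choice by an extreme ratio makes likely. The adjusted p of edgeR or DESeq2 varied widely. At 24 h it was 0.072 to 0.913 for TRINITY_DN33637_c0_g1 and 0.235 to 0.690 for TRINITY_DN19586_c0_g1. At 4 h it was 0.064 to 0.754 for TRINITY_DN29750_c0_g1. Other LPS contrasts of the named genes were called under some settings and not others. The 4 h log2 change of TRINITY_DN33637_c0_g1 ran from -5.03 to -0.60. The number of pools, 3 a group, limits the precision, and the median of the 150 genes had at least 107 counts in every library. Single genes had fewer, with lowest counts of 2, 0 and 1 in PBS 24 h replicates 1 to 3. The gene ranked 7 had 0.061, 0 and 0.026 CPM in these pools. In LPS 24 h replicates 1 to 3 it had 8.72, 0.619 and 0.407 CPM. Its 24 h ratio of 7.09 thus depends on the 0.5 CPM added and on LPS 24 h replicate 1.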

Other observations

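Among the genes with a mean of at least 2 CPM, 41 had a larger ratio of the 24 h to the 4 h effect than any of the 150 genes but failed a threshold. Pools overlapped at 24 h in 38 of them and at 4 h in 20. In 40 of the 41, LPS 24 h replicate 1 was the highest and PBS 4 h replicate 1 the lowest pool of their groups, the order also seen in 17 of the 150. Their median levels in PBS 4 h replicates 1 to 3 were 1.08, 270.1 and 126.1 CPM, and in LPS 24 h replicates 1 to 3 they were 13.7, 1.89 and 0.424 CPM. LPS 4 h replicate 2 was at 7.56 CPM, against 1.07 and 0.137 CPM in replicates 1 and 3. Over the 170 genes that met both ratio thresholds but whose pools overlapped, 77 had this order, against 6.78% of all genes.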
